A study of Homo sapiens with 27 samples.

Results

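The genes of the DNA replication machinery were followed through 5 states of IMR90 cells, a strain of normal human fetal lung fibroblasts with a limited replicative lifespan. The list gave 46 genes by name, of the 60534 gene identifiers that all libraries share and the 19301 of these matched to a protein-coding gene, and every one of the 46 was found. RNA-seq (13 libraries) measured mRNA, and Ribo-seq (14 libraries) sequenced ribosome footprints, the stretches of mRNA shielded by ribosomes during digestion with RNase. All cells were wild type and untreated unless stated. Cycling cells were growing and subconfluent (2 RNA-seq and 3 Ribo-seq libraries). Quiescent cells had stopped dividing through contact inhibition (3 and 3). One senescent group received 15 Gy of ionizing radiation and was harvested 10 days later (3 and 3), and the other received 3 treatments with 50 µM etoposide, a topoisomerase II poison, over 10 days (3 and 3). The last group was cycling cells given 25 nM thapsigargin, an inhibitor of the endoplasmic reticulum calcium pump, for 3 h (2 and 2). Nothing in the labels says that replicates came from separate cultures, so p-values measure the spread between these libraries, which may be technical.

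A cell copies its genome once per division in a fixed order of steps. In G1 the origin recognition complex (ORC1 to ORC6) with CDC6 and CDT1 loads the MCM2 to MCM7 ring onto DNA, which licenses the origin, and geminin (GMNN) blocks CDT1 once S phase has begun. MCM10, CDC45, the GINS complex (GINS1 to GINS4) and TOPBP1 then turn the loaded ring into an active helicase. Primase and the DNA polymerases alpha, delta and epsilon copy the strands, the sliding clamp PCNA is loaded by the RFC clamp loaders, RPA covers single-stranded DNA, FEN1 and LIG1 join Okazaki fragments, CLSPN, TIMELESS, TIPIN and WDHD1 hold the fork together, and CHAF1A and CHAF1B place histones behind it. Many of these genes are known targets of E2F transcription factors, which are active in dividing cells and held in check by the retinoblastoma family in quiescence and senescence.

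E2F-type letters, which the list did not use, stood in the start regions of some of these genes. RefSeq start windows (GRCh38.p14, 250 bases before to 50 after the start) were at hand for 39 of the 46 genes, and DSCC1, GINS4, MCM4, MCM5, POLD3, RPA2 and RPA3 had none. An E2F-type match, meaning any of TTTCCCGC, TTTGGCGC, TTTCGCGC or TTTGCCGC on either strand, lay in at least 1 window of 20 of the 39 genes (51.3%), against 5.4% of the 15843 protein-coding genes with a window. By window, 41.7% of 48 held a match, against 4.1% of the 22199 windows of protein-coding genes and 3.31% of all 35116 windows, all of the same length. The CCAAT box (CCAAT, either strand) was in 61.5% of the 39 genes and in 42.1% of protein-coding genes. The cell-cycle homology letters TTTGAA or TTCGAA were in 2.56% against 17.5%. The E2F-type letters hold more G and C than these, and windows were not matched for base composition, so its part in these shares was not tested. The stretches below run up to the base before the start, 5′ to 3′ on the gene's strand, with E2F-type matches in capitals. They show 4 genes whose mRNA fell in both senescent states (MCM6, CDT1, GINS2 and RFC3), PCNA and TIPIN, which hold a match and were called in 1 and none of the 2 senescent states, and RPA1, which holds none in its windows and was not called in mRNA.
MCM6: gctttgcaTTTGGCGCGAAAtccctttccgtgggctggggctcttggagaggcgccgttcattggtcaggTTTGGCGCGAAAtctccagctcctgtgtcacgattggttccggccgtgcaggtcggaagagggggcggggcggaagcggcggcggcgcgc
CDT1: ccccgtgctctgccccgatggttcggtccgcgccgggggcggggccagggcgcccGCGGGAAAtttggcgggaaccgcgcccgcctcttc
GINS2: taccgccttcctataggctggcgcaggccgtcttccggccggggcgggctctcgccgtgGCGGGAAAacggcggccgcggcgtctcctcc
RFC3: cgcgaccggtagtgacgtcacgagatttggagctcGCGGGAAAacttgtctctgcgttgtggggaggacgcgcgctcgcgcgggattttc
PCNA: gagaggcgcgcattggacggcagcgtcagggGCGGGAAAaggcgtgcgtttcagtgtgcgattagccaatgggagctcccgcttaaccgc
TIPIN: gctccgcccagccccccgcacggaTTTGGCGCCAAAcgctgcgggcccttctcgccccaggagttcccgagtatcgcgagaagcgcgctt
RPA1: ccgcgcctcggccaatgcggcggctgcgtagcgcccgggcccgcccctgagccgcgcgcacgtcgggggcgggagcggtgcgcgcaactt
These stretches lie at chr2:135876444-135876603 (minus strand), chr16:88803699-88803788 (plus strand), chr16:85688955-85689044 (minus strand), chr13:33818059-33818148 (plus strand), chr20:5126623-5126712 (minus strand), chr15:66356686-66356775 (minus strand) and chr17:1829915-1830004 (plus strand). In MCM6 the TTTGGCGC match overlaps a TTTCGCGC match on the other strand, and this pair occurs at 2 places, beginning 152 and 90 bases before the start. In TIPIN the letters TTTGGCGC overlap their own reverse complement, beginning 66 bases before the start. Single matches begin 35 bases before the start in CDT1, 31 in GINS2, 55 in RFC3 and 59 in PCNA. Of the 32 genes with a window whose mRNA fell in both senescent states, 17 held a match, and of the 7 others, 3 did. A match is a run of letters and was not tested for binding.

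Gene counts per library ranged from 20.6 M to 57.1 M (M, counts in units of 1000000) in RNA-seq and from 1.94 M to 20.0 M in Ribo-seq. Cycling RNA-seq replicate 2 was the shallowest RNA-seq library, with 33.4% multimapping reads, 10.6% opposite-strand counts and 72.4% of reads not assigned to a gene. Cycling replicate 1 had 13.2%, 5.76% and 54.2%. Every mRNA comparison with cycling cells rests on these 2 libraries, and without replicate 1 it rests on replicate 2 alone. The 2 thapsigargin RNA-seq libraries had 1.35% and 1.40% unmapped reads against 27.8% to 40.6% in the other 11, and those cells were also grown without the antibiotic and antimycotic used for the others, so the treatment and these differences cannot be told apart. These 2 libraries also differed from each other, with 38.0% multimapping reads in replicate 1 and 19.7% in replicate 2, and 47.7% and 28.9% of reads not assigned to a gene. The thapsigargin Ribo-seq libraries were the shallowest, at 1.94 M and 2.04 M gene counts, with 65.2% and 66.9% multimapping reads against 19.8% to 31.9%, and were counted on another gene list than the other Ribo-seq libraries. The 8 fibroblast markers summed to 8873 to 14322 counts per 1000000 (CPM) in RNA-seq, the 3 leukocyte markers to at most 0.769 CPM and the 3 endothelial markers to at most 2.62 CPM. Of the 4 epithelial markers KRT19, also expressed by cultured fibroblasts, made up most of the sum. It moved with the states, at a mean of 18.6 CPM in cycling, 13.6 in quiescent, 6.52 in irradiated, 2.46 in etoposide-treated and 92.6 in thapsigargin-treated RNA-seq libraries. In etoposide-treated RNA-seq libraries CDH1 and EPCAM had means of 0.292 and 0.273 CPM. In Ribo-seq the fibroblast marker sum also moved with the states, at 35488 to 37193 CPM in cycling, 17342 to 36953 CPM in quiescent, 22402 to 24679 CPM in irradiated, 29608 to 31811 CPM in etoposide-treated and 12393 to 12946 CPM in thapsigargin-treated libraries. The part of these markers in the results was not tested.

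The replication genes were lower in both kinds of senescent cell than in cycling cells, in mRNA and in footprints, and quiescent cells lay between. Summed over the 46 genes, mRNA stood at 1936 and 1692 CPM in the 2 cycling libraries, at 1196 to 1383 CPM in the quiescent, at 857 to 888 CPM in the irradiated and at 813 to 843 CPM in the etoposide-treated libraries. Footprints summed to 2921 to 3348 CPM in cycling, 1943 to 2423 CPM in quiescent, 1367 to 1392 CPM in irradiated and 1293 to 1303 CPM in etoposide-treated libraries. In both assays these 4 ranges do not overlap. The thapsigargin libraries, at 1770 and 1807 CPM in mRNA, lay within the cycling range. CPM is a share of the library and not an amount per cell, and these are bulk samples. Fewer cells in S phase, less RNA of these genes per cell and more RNA of other genes cannot be told apart.

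**Figure D1:**
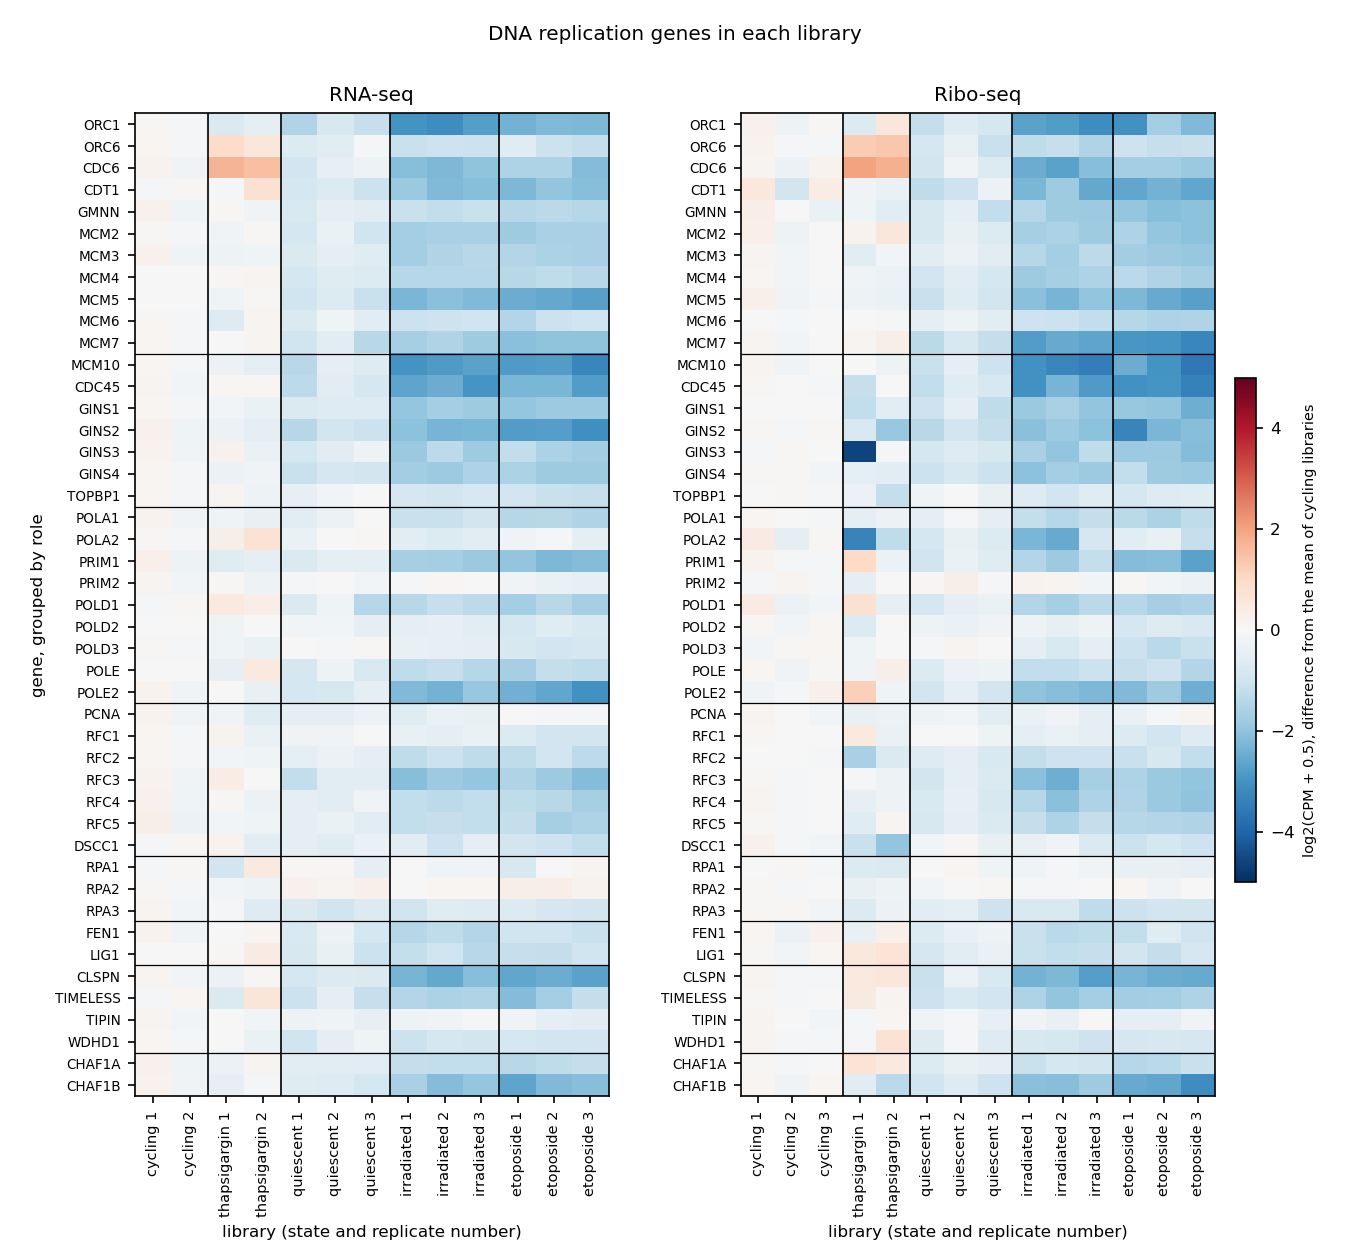
Level of each of the 45 replication genes with a tested level (rows, grouped by role) in each library (columns, by state and replicate number) as log2(CPM + 0.5) minus the mean of the cycling libraries, for RNA-seq (left) and Ribo-seq (right), with blue for lower and red for higher. The irradiated and etoposide-treated columns are blue for all but a few rows, such as PRIM2, PCNA, RPA1, RPA2 and TIPIN, and CDC6 and ORC6 are red in the thapsigargin columns.

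Gene by gene, edgeR's quasi-likelihood test with Benjamini-Hochberg adjustment over all genes called a gene changed at an adjusted p under 0.05. RNASEH2A, a ribonuclease H2 subunit, had at most 9 counts in any library and was not tested, which leaves 45 genes in each assay. In mRNA 40 of 45 were lower in irradiated and 39 of 45 in etoposide-treated than in cycling cells, and none was higher, where 18.8% and 17.8% of the 13291 genes tested were called lower. The median log2 fold change of the 45 was -1.31 after irradiation (40.3% of the cycling level) and -1.48 after etoposide (35.8%), against 0.03 and 0.00 over all genes tested. Quiescent cells had 20 of 45 called lower and none higher (10.4% of all genes were called lower), with a median of -0.60. In 41 of 45 genes every irradiated library lay below both cycling libraries (32.6% of all genes did), and in 42 of 45 every etoposide-treated library did (33.2%). The quiescent count rested on single libraries, at 5 without cycling replicate 1, 13 without cycling replicate 2 and 12 without quiescent replicate 1, and at 9 when only those 2 states were fitted.

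All 11 origin licensing genes fell in mRNA and in footprints in both senescent states, and 8 of them fell in quiescent mRNA. ORC1, the largest subunit of the origin recognition complex, stood at 15.4 and 14.5 CPM in cycling RNA-seq, at 4.90, 8.38 and 6.37 CPM in quiescent, at 1.44, 1.29 and 1.77 CPM in irradiated and at 2.48, 2.86 and 2.72 CPM in etoposide-treated libraries. The 4 states do not overlap, and the irradiated libraries are the lowest. The log2 fold change of ORC1 against cycling cells was -3.32 ± 0.23 (SE, adjusted p = 3.10e-07, edgeR) after irradiation, or 10.0% of the cycling level, and -2.47 ± 0.22 after etoposide. CDC6, the ATPase that joins the origin complex before MCM loading, was at 36.9 and 29.4 CPM in cycling, at 7.05, 6.49 and 7.70 CPM in irradiated and at 10.9, 10.8 and 6.88 CPM in etoposide-treated libraries (log2 fold changes -2.23 ± 0.23 and -1.80 ± 0.22). CDT1, which brings the MCM ring, went from 15 and 16 CPM to between 2.87 and 3.94 CPM over the 6 senescent libraries (-2.21 ± 0.24 and -2.27 ± 0.24). Its inhibitor geminin (GMNN) went from 26.7 and 20.0 CPM to 9.50 to 10.5 CPM in irradiated and 8.25 to 8.85 CPM in etoposide-treated libraries (-1.20 ± 0.16 and -1.46 ± 0.16). Whether the falls of CDT1 and GMNN differ was not tested. ORC6, a small origin complex subunit, went from 23.6 and 20.9 CPM to between 9.55 and 14.5 CPM in senescent libraries (-1.11 ± 0.21 and -0.96 ± 0.21). Its fold change was the smallest of the group after etoposide. After irradiation the smallest of the group was -1.05, in another gene.

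The 6 subunits of the MCM ring fell together. MCM2 went from 57.0 and 52.7 CPM in cycling to 16.5, 17.6 and 17.7 CPM in irradiated and 15.8, 17.6 and 17.4 CPM in etoposide-treated libraries (log2 fold changes -1.67 ± 0.18 and -1.69 ± 0.18). MCM7 went from 137 and 120 CPM to 40.4, 44.5 and 37.0 CPM in irradiated and 30.0, 31.8 and 31.6 CPM in etoposide-treated libraries (-1.66 ± 0.19 and -2.05 ± 0.19). MCM5 had the largest fall of the ring after etoposide, at -2.63 ± 0.15, or 16.1% of cycling (adjusted p = 3.97e-08, edgeR). Quiescent MCM7 libraries, at 64.6, 88.2 and 48.4 CPM, lay between the cycling and the senescent ones without overlap.

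All 7 helicase activation genes fell in both senescent states in both assays, and this group had the largest median mRNA fall of the 4 groups with 7 or more members (-1.86 after irradiation and -1.92 after etoposide). MCM10, which helps the loaded ring open DNA, was at 26.0 and 22.1 CPM in cycling, at 8.75, 17.4 and 15.0 CPM in quiescent, at 2.62, 2.89 and 3.30 CPM in irradiated and at 2.97, 2.98 and 2.05 CPM in etoposide-treated libraries. Both senescent groups lie far below the quiescent one. Its log2 fold change was -3.03 ± 0.26 after irradiation and -3.18 ± 0.26 after etoposide (adjusted p = 1.74e-06 and 7.90e-07, edgeR), about 12.2% and 11.1% of the cycling level. CDC45, the helicase subunit that joins with GINS, fell by 2.90 on the log2 scale after irradiation (SE 0.25), and GINS2 by 3.02 after etoposide (SE 0.20). TOPBP1, which recruits CDC45 and also serves checkpoint signalling, had the smallest fold change of the group, from 96.5 and 84.5 CPM to 47.6 to 52.2 CPM in irradiated and 40.8 to 46.1 CPM in etoposide-treated libraries (-0.86 ± 0.15 and -1.08 ± 0.15).

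Of the 9 polymerase and primase genes, 8 fell in irradiated and 7 in etoposide-treated mRNA, and none was called in quiescent mRNA by edgeR (4 had an unadjusted p under 0.05, and DESeq2 called 1). POLE2, the second subunit of polymerase epsilon, was at 13.6 and 10.6 CPM in cycling, 6.25, 6.61 and 8.59 CPM in quiescent, 2.24, 1.95 and 2.83 CPM in irradiated and 1.89, 1.56 and 1.02 CPM in etoposide-treated libraries (log2 fold changes of -2.37 ± 0.26 and -3.03 ± 0.26 in the senescent states). PRIM2, the large primase subunit, was at 53.7 and 44.1 CPM in cycling and at 36.5 to 50.7 CPM in the senescent libraries, with log2 fold changes of -0.03 ± 0.14 after irradiation and -0.30 ± 0.13 after etoposide (adjusted p = 0.882 and 0.0968, edgeR). PRIM1, the catalytic primase subunit that pairs with PRIM2, was called lower in both.

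Of the 7 clamp and clamp loader genes, 6 fell in mRNA in each senescent state. RFC3, a subunit of the clamp loader, went from 26.4 and 20.4 CPM to 4.85, 6.22 and 5.66 CPM in irradiated and 7.93, 6.31 and 4.80 CPM in etoposide-treated libraries (-2.07 ± 0.25 and -1.89 ± 0.24). RFC1, the large loader subunit, was at 102 and 88.4 CPM in cycling, 68.5 to 76.0 CPM in irradiated (-0.40 ± 0.15, adjusted p = 0.0566 with edgeR, 0.0431 with DESeq2 and 0.00146 with edgeR on only the 2 states compared) and 49.5 to 59.6 CPM in etoposide-treated libraries (-0.85 ± 0.15). PCNA, the clamp itself, had 134 and 107 CPM in cycling, 79.2, 94.2 and 93.5 CPM in irradiated and 119, 111 and 112 CPM in etoposide-treated libraries. The etoposide-treated libraries overlap the cycling ones (-0.08 ± 0.14, adjusted p = 0.695, edgeR). The irradiated libraries were called lower (-0.44 ± 0.14), a call lost without cycling replicate 1 (adjusted p = 0.316) or without irradiated replicate 1 (0.109).

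The RPA genes, whose products coat single-stranded DNA in replication and in repair, differed among themselves, with 1 of 3 called lower in senescent mRNA. RPA1 was at 51.3 and 55.4 CPM in cycling, 45.4 to 52.6 CPM in irradiated and 30.8, 52.2 and 59.2 CPM in etoposide-treated libraries (log2 fold changes -0.14 ± 0.34 and -0.17 ± 0.34). RPA2 was at 42.7 and 38.5 CPM in cycling, 41.5 to 43.8 CPM in irradiated and 49.5, 50.5 and 45.8 CPM in etoposide-treated libraries (0.08 ± 0.11 and 0.26 ± 0.11, adjusted p = 0.596 and 0.0831, edgeR). DESeq2 called RPA2 higher after etoposide (0.28, adjusted p = 0.0257). It was the only one of the 45 whose etoposide-treated libraries all lay above the cycling libraries in mRNA (33.3% of all genes did). RPA3 was lower in both, from 26.9 and 22.2 CPM to 11.9 to 16.1 CPM (-0.76 ± 0.20 and -0.83 ± 0.20). Without cycling replicate 1 neither RPA3 call held (adjusted p = 0.111 and 0.0762, edgeR).

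Both Okazaki fragment genes tested fell. FEN1, the flap endonuclease, went from 49.5 and 39.0 CPM to 15.8, 18 and 15.8 CPM in irradiated and 22, 21.8 and 19.8 CPM in etoposide-treated libraries (-1.42 ± 0.17 and -1.06 ± 0.17). LIG1, the ligase that seals the fragments, went from 24.1 and 24.2 CPM to 8.84 to 11.8 CPM over the 6 senescent libraries (-1.23 ± 0.20 and -1.16 ± 0.20). Of the 4 fork protection genes 3 fell in each senescent state. CLSPN, the checkpoint adaptor claspin, was at 46.5 and 39.2 CPM in cycling, 23.0, 26.5 and 25.6 CPM in quiescent, 8.15, 6.88 and 9.43 CPM in irradiated and 6.64, 7.17 and 6.23 CPM in etoposide-treated libraries (-2.39 ± 0.16 and -2.68 ± 0.17). TIPIN, the partner of TIMELESS, was not called in mRNA, at 13.5 and 11.2 CPM in cycling and 8.04 to 11.9 CPM in senescent libraries (-0.17 ± 0.17 and -0.42 ± 0.17). It was called after etoposide without etoposide replicate 1 (-0.54, adjusted p = 0.0366, edgeR). Of the histone chaperone pair, CHAF1B went from 17.9 and 14.3 CPM to 2.17 to 4.93 CPM in senescent libraries (-2.02 ± 0.23 and -2.49 ± 0.23) and CHAF1A from 35.9 and 27.1 CPM to 11.5 to 13.5 CPM (-1.26 ± 0.16 and -1.33 ± 0.16).

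**Figure D2:**
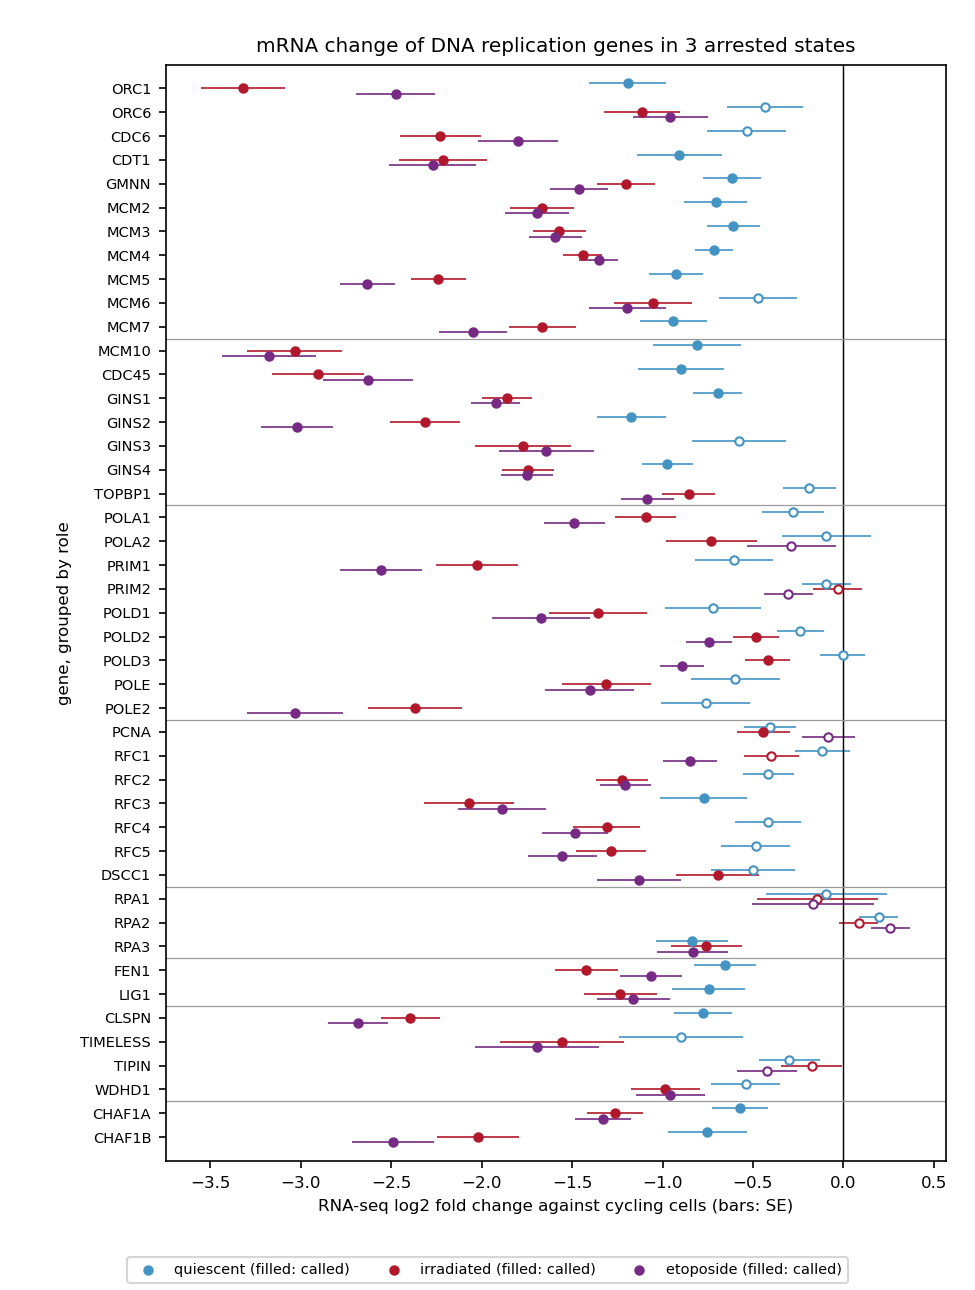
RNA-seq log2 fold change against cycling cells (x axis, bars are SE) for the 45 genes (y axis, grouped by role) in quiescent, irradiated and etoposide-treated cells, with filled points for genes called at an adjusted p under 0.05. The senescent points of most genes lie to the left of the quiescent ones, and PRIM2, RPA1, RPA2 and TIPIN are open in all 3 states.

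The comparison of both senescent states with quiescent cells asked how senescent cells differ from cells in a reversible arrest. It called 37 of 45 lower and none higher (17.6% of all genes were called lower), with a median of -0.78 against 0.00 for all genes. The 8 genes not called were POLA2, DSCC1, a subunit of an alternative clamp loader, PRIM2, PCNA, TIPIN and all 3 RPA genes. The largest differences from quiescent cells were those of MCM10 (-2.29 ± 0.19), POLE2 (-1.94 ± 0.20), CDC45 (-1.87 ± 0.19), CLSPN (-1.76 ± 0.12) and ORC1 (-1.70 ± 0.17). In quiescent against cycling cells the 5 lowest were ORC1 (-1.19 ± 0.21), GINS2 (-1.17 ± 0.19), GINS4 (-0.97 ± 0.14), MCM7 (-0.94 ± 0.19) and MCM5 (-0.93 ± 0.15), all called by edgeR. The MCM7 call was lost without cycling replicate 1 (adjusted p = 0.0622) and when only those states were fitted (0.0507). These comparisons share their quiescent or cycling libraries.

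Few replication genes were called different between the 2 kinds of senescent cell. edgeR called 1 of 45 lower and 3 higher in irradiated mRNA, where 22.6% of all genes were called in either direction. ORC1 was lower after irradiation (-0.84 ± 0.22, adjusted p = 0.0154), and GINS2 (0.71 ± 0.18), POLD3 (0.47 ± 0.11), an accessory subunit of polymerase delta, and RFC1 (0.45 ± 0.14) were higher. The count was 1 without irradiated replicate 1, 2 without irradiated replicate 2, 2 without etoposide replicate 2 and 9 when only those 2 states were fitted. ORC1 was not called without irradiated replicate 1 (adjusted p = 0.0602), irradiated replicate 2 (0.0592) or etoposide replicate 2 (0.0576). GINS2 was not called without irradiated replicate 1 (0.0684) or etoposide replicate 3 (0.0635), and RFC1 was not called without any one of the 3 irradiated libraries or of etoposide replicates 2 and 3 (0.0597 to 0.123). In footprints 3 of 45 were higher after irradiation and none lower (21.7% of all genes were called in either direction), namely MCM6 (0.38 ± 0.10), POLD2 (0.46 ± 0.15) and POLD3 (0.65 ± 0.18). None of the 45 was called without etoposide replicate 2 or without irradiated replicate 1, and 12 were when only those 2 states were fitted. POLD2 was not called without etoposide replicate 1 (adjusted p = 0.102), etoposide replicate 3 (0.0808) or irradiated replicate 3 (0.088) either.

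Footprints of most replication genes were lower in the arrested states as well. In Ribo-seq 38 of 45 were lower in irradiated, 40 in etoposide-treated and 25 in quiescent cells, and none was higher, where 22.6%, 17.6% and 14.6% of the 11764 genes tested were called lower. The medians were -1.57, -1.52 and -0.65. Every irradiated library and every etoposide-treated library lay below all cycling libraries in 41 of 45 genes each (32.5% and 30.3% of all genes). The quiescent count was 11 without cycling replicate 1 and 14 without cycling replicate 3. Against quiescent cells, 35 of 45 were lower in the senescent states (13.6% of all genes). PCNA, PRIM2, RPA2 and TIPIN were called in none of the 3 arrested states.

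MCM7 had 368, 305 and 339 CPM of footprints in cycling, 132, 191 and 147 CPM in quiescent, 47.6, 58.9 and 54.0 CPM in irradiated and 43.8, 42.8 and 34.7 CPM in etoposide-treated libraries. Its footprints fell, with log2 fold changes of -2.67 ± 0.15 after irradiation and -3.06 ± 0.15 after etoposide against -1.66 and -2.05 in mRNA. Geminin (GMNN) had 187, 152 and 118 CPM of footprints in cycling and 39.2, 33.9 and 35.9 CPM in etoposide-treated libraries (-2.07 ± 0.21). Footprints of MCM10 went from 40.7, 32.7 and 36.8 CPM to 4.04, 3.40 and 2.86 CPM in irradiated and 6.13, 4.20 and 2.60 CPM in etoposide-treated libraries. RPA1 footprints were at 220, 223 and 202 CPM in cycling and at 167, 168 and 161 CPM in etoposide-treated libraries, called lower (-0.38 ± 0.09, adjusted p = 0.00615, edgeR). PCNA footprints, at 297, 276 and 247 CPM in cycling and 217, 254 and 298 CPM in etoposide-treated libraries, overlap.

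**Figure D3:**
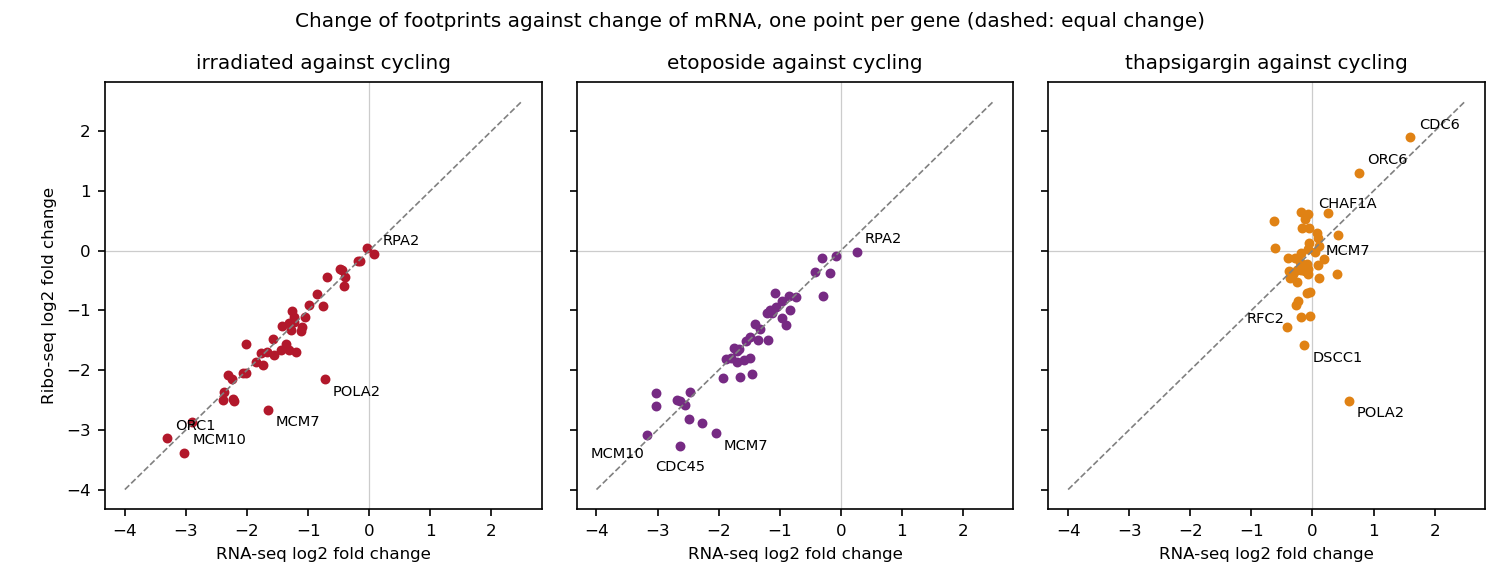
Ribo-seq log2 fold change (y axis) against RNA-seq log2 fold change (x axis) of the 45 genes, one point per gene, in 3 panels (irradiation, etoposide, thapsigargin, each against cycling cells), with the dashed line marking equal change. In the senescent states most points lie near the line and MCM7 lies below it, at -2.67 against -1.66 after irradiation and -3.06 against -2.05 after etoposide, while CDC6 and ORC6 stand out at the upper right under thapsigargin. After irradiation POLA2 lies further below the line than MCM7, on low footprint levels (means of 4.66 CPM in cycling and 1.06 CPM in irradiated libraries).

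The change of footprints beyond that of mRNA, the translational efficiency, was tested as an interaction over all 27 libraries. edgeR called none of the 45 genes in quiescent, irradiated or etoposide-treated cells, with 0, 2 and 3 genes at an unadjusted p under 0.05, and only 0.00854%, 0.0512% and 0.0683% of 11713 genes were called. DESeq2 called 1 of the 45 after etoposide and 0 in the other 2 states. That gene was MCM7, whose efficiency differed by -1.06 ± 0.24 after etoposide (adjusted p = 0.138) and by -0.88 ± 0.24 after irradiation (0.312) with edgeR. With DESeq2 the etoposide difference was called (adjusted p = 0.0321), and fitted on only the 2 states compared, both were (0.0128 after etoposide and 0.000544 after irradiation). An edgeR fit that paired RNA-seq and Ribo-seq libraries by replicate number also called the etoposide difference (adjusted p = 0.0453). MCM7 did not have the lowest efficiency difference after irradiation, which was -1.31 and not called by edgeR. For POLA2 mean footprints over mean mRNA were 1.64 in cycling and 0.619 in irradiated cells, on mean footprints of 4.66 and 1.06 CPM. Outside the thapsigargin libraries the ratio of footprints to mRNA joins counts made on 2 gene lists, each assay on its own list. In the comparisons of this paragraph both sides share these lists, which does not hold for thapsigargin against cycling cells.

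Thapsigargin for 3 h went with higher mRNA of the licensing factors CDC6 and ORC6, while the other 43 genes tested were not called. In mRNA 2 of 45 were called higher and none lower, where 11.7% and 12.8% of all genes were. CDC6 stood at 107 and 94.8 CPM against 36.9 and 29.4 CPM in cycling cells (1.60 ± 0.24, adjusted p = 0.000443, edgeR), and both treated libraries lay above both cycling ones. ORC6 stood at 42.6 and 33.0 CPM against 23.6 and 20.9 CPM (0.76 ± 0.23, adjusted p = 0.0264). The ORC6 call was lost without cycling replicate 1 (adjusted p = 0.0831), cycling replicate 2 (0.162) or thapsigargin replicate 1 (0.127), and when only those 2 states were fitted (0.0525). Counts of called genes were 1 without cycling replicate 1 and 4 without thapsigargin replicate 1. ORC1, at 8.75 and 10.7 CPM against 15.4 and 14.5 CPM, was not called (-0.62 ± 0.23, adjusted p = 0.0675).

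In footprints 8 of 45 were lower and 4 higher under thapsigargin, where 24.4% and 20% of all genes were called lower and higher, so the list held no larger share of calls than all genes in either direction. CDC6 footprints stood at 157 and 135 CPM against 42.5, 31.4 and 43.5 CPM (1.90 ± 0.21, adjusted p = 1.70e-05, edgeR). ORC6 footprints stood at 79.0 and 84.0 CPM against 37.4, 30.5 and 31.2 CPM (1.30 ± 0.20), and as with CDC6 the groups do not overlap. LIG1 (0.62 ± 0.18) and CHAF1A (0.61 ± 0.16) were also higher, LIG1 not without thapsigargin replicate 2 (adjusted p = 0.0556). Among the lower ones DSCC1 had 7.08 and 3.65 CPM against 18.7, 15.0 and 14.6 CPM (-1.59 ± 0.32), and RFC2 had 15.3 and 29.2 CPM against 49.0, 49.2 and 45.9 CPM (-1.11 ± 0.23). GINS2 (-1.28 ± 0.35) was not called without thapsigargin replicate 2 (adjusted p = 0.0897). POLA2, the accessory subunit of polymerase alpha, had 0 and 3 counts under thapsigargin against 147 counts in the 3 cycling libraries, a ratio of 17.9% with a 95% exact counting interval of 3.65% to 53.3% that covers counting error only. edgeR called it lower (adjusted p = 0.0333), but not without thapsigargin replicate 1 (0.204), cycling replicate 1 (0.0687) or cycling replicate 3 (0.0574), nor when only those 2 states were fitted (0.0838).

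**Figure D4:**
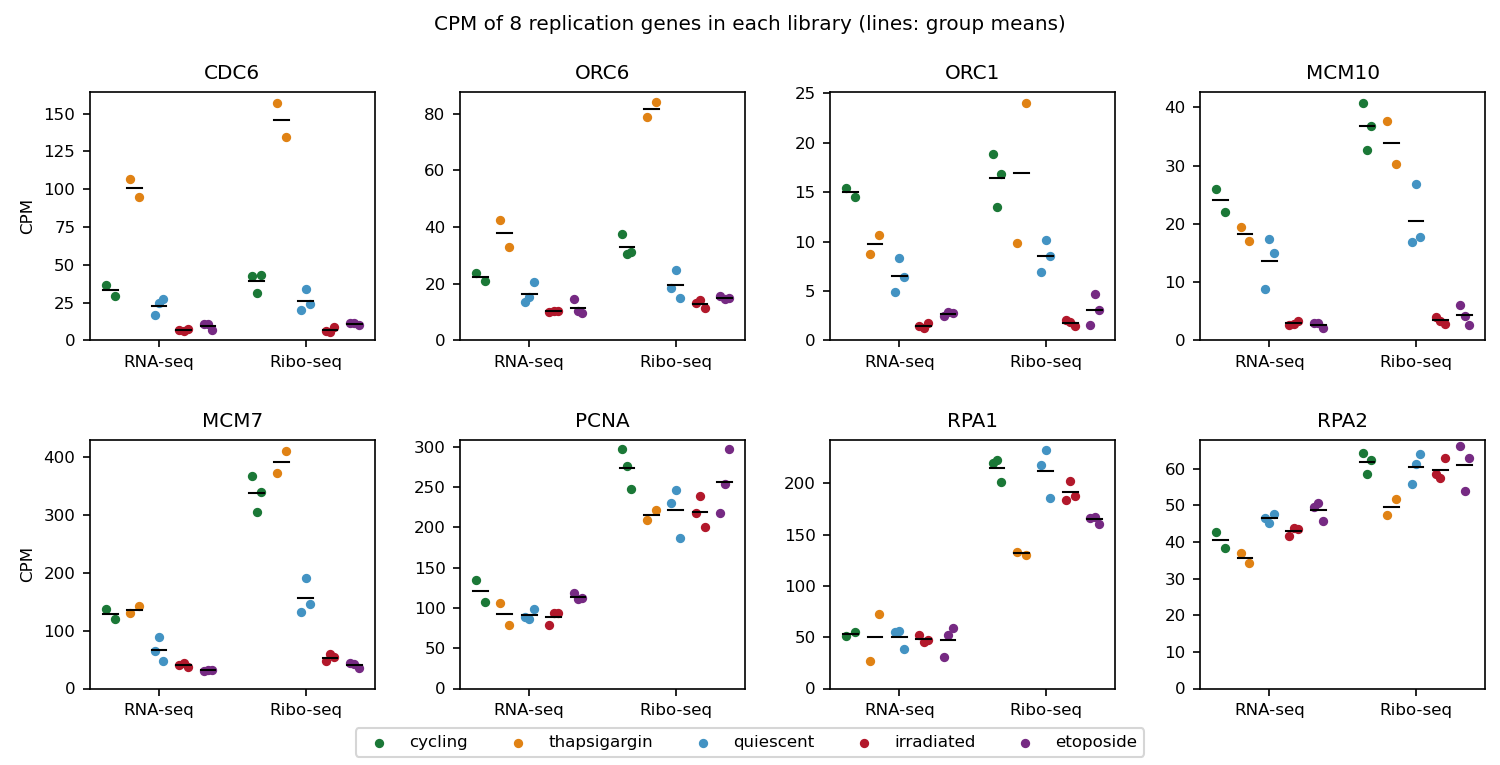
CPM of CDC6, ORC6, ORC1, MCM10, MCM7, PCNA, RPA1 and RPA2 in each library, with one point per library, a line at each group mean, RNA-seq on the left and Ribo-seq on the right of each panel, and y axes starting at 0. CDC6 and ORC6 are highest under thapsigargin in both assays, ORC1, MCM10 and MCM7 are lowest in the senescent states, and the etoposide-treated PCNA libraries overlap the cycling ones in both assays.

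Translational efficiency under thapsigargin was called lower for POLA2 (-3.14 ± 0.84), DSCC1 (-1.48 ± 0.43) and RFC2 (-0.95 ± 0.29) and higher for CHAF1A (0.66 ± 0.23), 4 of 45 where 20.8% of all genes were called by edgeR. CDC6 (0.27 ± 0.32) and ORC6 (0.51 ± 0.31) were not called. The treated Ribo-seq libraries were counted on another gene list than the cycling ones, so treatment and gene list cannot be told apart in this ratio. None of the 4 calls held when only those 2 states were fitted. The count was 2 without RNA-seq cycling replicate 1 or thapsigargin replicate 1 and 9 without Ribo-seq thapsigargin replicate 2. POLA2, with its 0 and 3 footprint counts, went to -2.16 and was not called without Ribo-seq thapsigargin replicate 1 (adjusted p = 0.0805). Without replicate 2, which leaves a treated library with 0 counts, the fitted value was -10.1, and neither value bounds the change. DSCC1 was not called without RNA-seq cycling replicate 1 (0.0515), RNA-seq thapsigargin replicate 1 (0.0904) or Ribo-seq thapsigargin replicate 2 (0.091). RFC2 was not called without RNA-seq cycling replicate 2 (0.0821), RNA-seq thapsigargin replicate 1 (0.0536) or Ribo-seq thapsigargin replicate 1 (0.168). CHAF1A was not called without RNA-seq cycling replicate 1 (0.25), RNA-seq thapsigargin replicate 1 (0.123), any one Ribo-seq cycling library (0.0536 to 0.0773) or Ribo-seq thapsigargin replicate 1 (0.112), nor with no filter on low counts (0.105).

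A further 26 genes of the same pathway, not on the list, were looked up beside these. In mRNA 12 fell after irradiation (46.2% of the 26, against 18.8% of all genes), 15 after etoposide (57.7% against 17.8%) and 6 in quiescence (23.1% against 10.4%), with medians of -0.52, -0.67 and -0.22. TICRR, which works with TOPBP1 in loading CDC45, had -3.26 ± 0.36 and -3.73 ± 0.37 in the senescent states, and the histone chaperone ASF1B had -2.75 ± 0.23 and -2.61 ± 0.23. With counts of both strands TICRR stood at -2.40 and -2.53, and then ASF1B was the lower of the pair (-2.75 and -2.61). In each senescent state 1 of the 26 was higher in mRNA (16.2% and 16.8% of all genes were) and 1 in footprints (17.2% and 16.4%), and each time it was ORC3, an origin complex subunit (0.56 ± 0.15 and 0.40 ± 0.15 in mRNA and 0.45 ± 0.13 and 0.58 ± 0.13 in footprints, edgeR). Neither mRNA call of ORC3 held without cycling replicate 1 (adjusted p = 0.0508 and 0.143) or cycling replicate 2 (0.0759 and 0.211), nor the etoposide call without any one etoposide library (0.0741 to 0.129), and the footprint call after irradiation was lost without irradiated replicate 1 (0.0515).

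In footprints 13 of the 26 fell after irradiation (50.0%, against 22.6% of all genes) and 16 after etoposide (61.5% against 17.6%). In quiescent footprints 5 fell, namely TICRR, DNA2, ASF1B, CDC7 and MCMBP (19.2% against 14.6%), and none of these calls held without cycling replicate 1 (adjusted p = 0.0769 to 0.138). Under thapsigargin 2 of the 26 fell in mRNA, ASF1A and RNASEH2B (7.69% against 12.8%), and none was higher. Both of these calls were lost without either cycling library or without thapsigargin replicate 2. In thapsigargin footprints MCM8, ASF1A and ORC3 were lower (11.5% against 24.4%), and ORC4, RNASEH2C and MCM9 were higher (11.5% against 20%). The calls of MCM8, ORC4, RNASEH2C and MCM9 were lost without thapsigargin replicate 1 (adjusted p = 0.203, 0.055, 0.309 and 0.461), where MCM9 turned from 1.09 ± 0.42 to -0.41.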

How the data were processed

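RNA-seq and Ribo-seq counts per gene were taken as the authors deposited them, as raw whole-number read counts with no normalization. STAR 2.7.10b, DESeq2 1.36.0, bcl2fastq and the hg38 build are named in the submitters' processing notes, and the gene annotation and read trimming are not given in the sources used here. Samples were grouped by their titles. For RNA-seq the counts of the reverse strand were taken and for Ribo-seq those of the forward strand; the opposite strand held 5.32% to 10.6% and 3.55% to 4.19% of stranded counts. Rows that name no gene, such as reads assigned to no gene (28.9% to 72.4% in RNA-seq and 44.1% to 85.7% in Ribo-seq), were left out. The 60534 identifiers common to the 2 gene lists were kept, limited to 19301 protein-coding genes by symbol against RefSeq, and low counts were removed with filterByExpr, leaving 13291 genes in RNA-seq, 11764 in Ribo-seq and 11713 in the joint test.

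edgeR 4.0.16 in R 4.3.3 fitted quasi-likelihood models (TMM scaling, robust, all 5 states) with Benjamini-Hochberg adjustment over all genes tested, two-sided, and standard errors are the log2 fold change divided by the root of F. Translational efficiency was the assay-by-state interaction over 27 libraries. CPM uses TMM-scaled library sizes. The scripts were tested on simulated data. Alternatives were DESeq2 1.42.0, RLE scaling, no filter on low counts, counts of both strands, only the groups compared, a replicate block and leaving out each library. Promoter letters come from RefSeq start windows.

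The members and lists were chosen with earlier results of these data known. Statistics are given for the 5 lowest and 5 highest genes of a comparison, and library values for the lowest and highest gene of each role group, for MCM2, MCM7, CDC6, CDT1, GMNN, PCNA, RPA1 and RFC1, and for genes called in a translational efficiency comparison; of the 26 further pathway genes the 2 lowest and 2 highest per comparison may be named. GINS2 footprints, POLD2, MCM6 and those of the 26 named beyond this were named because they make up counts of 5 or fewer or stand at an extreme.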

Additional observations from a re-analysis of the deposited data

How the results depend on the processing

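Counts of replication genes called kept within 1.5 times their value in 86 of 96 alternative settings and in 99 of 114 fits without 1 library. A count that stayed at 0 was taken as kept. This held for efficiency in quiescent, irradiated and etoposide-treated cells in all 11 fits without 1 library each, so the tally says less about counts above 0. Fitted on only the groups compared, 9 were called in quiescent against cycling mRNA, 1 in thapsigargin mRNA, 9 in irradiated against etoposide-treated mRNA and 12 in the same footprint comparison, where DESeq2 called 6. For translational efficiency, 1 was called after etoposide with DESeq2, with only the groups compared and with the replicate block, 1 after irradiation with only the groups compared, and 0 under thapsigargin with only the groups compared. The cause was not tested. Nor were these counts set against the share of all genes called in the same fits. Without 1 library each, counts ranged from 5 to 21 (quiescent mRNA), 11 to 26 (quiescent footprints), 1 to 4 (thapsigargin mRNA), 1 to 4 and 0 to 4 (irradiated against etoposide-treated mRNA and footprints) and 2 to 9 (thapsigargin efficiency). Also without 1 library each, 35 to 37 footprint calls were made after irradiation and 40 after etoposide, against 38 and 40 in the main fits. In senescent against quiescent cells 30 to 36 were called in mRNA and 29 to 36 in footprints, against 37 and 35. Replicate numbers did not clearly pair the RNA-seq libraries across states. Same-numbered deviations there correlated at -0.19 to 0.47 (9 of 23 pairs over 0.1, against 13 of 44 pairs with unlike numbers). In Ribo-seq across states they correlated at -0.19 to 0.27 (6 of 26, against 5 of 52). Between RNA-seq and Ribo-seq of a state they correlated at -0.02 to 0.58 (6 of 13, against 2 of 24). A partial pairing by number is therefore possible in Ribo-seq and between the assays, and the main fits used no replicate block. Under the replicate block the PRIM2 difference after irradiation turned from -0.03 to 0.0044. The block added the calls of RFC1 mRNA after irradiation (adjusted p = 0.0356, edgeR) and MCM7 efficiency after etoposide (0.0453), and ended those of ORC3 mRNA after etoposide (0.0551), TICRR footprints in quiescence (0.0569), CHAF1A efficiency (0.0845) and the footprints of POLA2 (0.056), MCM8 (0.0538) and MCM9 (0.0891) under thapsigargin.

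Signs also turned without 1 library in 3 values near 0, none of them called, and in the footprints of MCM9 under thapsigargin, called at 1.09, which ranged from -0.41 without thapsigargin replicate 1 to 1.81 without replicate 2. Over the fits without 1 library PRIM2 after irradiation ranged from -0.17 to 0.12, PCNA after etoposide from -0.23 to 0.086 and RPA1 after etoposide from -0.36 to 0.063. Groups held 2 or 3 libraries, and the shallowest Ribo-seq library had 1.94 M gene counts (units of 1000000). Small changes of genes with few counts may have been missed, and no detection limit was computed.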
